A study of Mus musculus with 4 samples.

Results

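The osteoclast genes examined here are Ctsk, Acp5, Dcstamp, Ocstamp, Atp6v0d2, Calcr, Oscar, Nfatc1 and Itgb3. They are genes in common use as markers of the osteoclast and were listed by name. All 9 were found among the 50686 gene identifiers of the hip libraries and the 54838 of the knee libraries, and each had at least 1 count in each of the 4 libraries.

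The study asked how loss of Cbfβ, the partner protein that lets RUNX transcription factors bind DNA stably, alters gene expression in articular cartilage. Poly-A RNA labelled as mouse hip and knee articular cartilage was sequenced, with 1 library per condition. The study describes its hip samples as articular cartilage alone and its knee samples as cartilage together with bone. The hip control came from Cbfβf/f mice, whose Cbfb alleles are floxed but which carry no Cre and are labelled untreated. The study is not uniform here: its legends name Cbfβf/f mice and its text wild-type mice as this control. Its methods give either TMX or corn oil to Cbfβf/f mice. The other hip library came from Cbfβf/f;Col2α1-CreERT mice given tamoxifen (TMX), which activates the Cre protein. Both knee libraries came from Cbfβf/f;Aggrecan-CreERT mice, and the control was injected with oil and the other with TMX. By the labels, all 4 libraries thus carry floxed Cbfb, and the hip pair differs in Cre and in TMX as well as in Cbfb. The mice were male, given as 6 weeks old in the study's legend and 2 months old in its text for the hip, and 12 weeks old for the knee. TMX was given from 2 weeks of age in the Col2α1-CreERT line, and from 8 weeks in the methods or 6 weeks in the legend for the Aggrecan-CreERT line. Col2a1 and Aggrecan are genes of chondrocytes, so both Cre lines are directed at chondrocytes and neither at osteoclasts. The methods describe groups of several mice per experiment in general terms, and no source used here ties a number of mice to a library.

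Osteoclasts are the large cells with many nuclei that resorb bone and calcified cartilage. They arise by fusion of precursors of the monocyte and macrophage lineage, under CSF1 and RANKL, a ligand that osteoblasts, osteocytes and hypertrophic chondrocytes display and that its decoy receptor osteoprotegerin binds. RANKL signalling, with costimulation through receptors such as OSCAR, raises NFATc1, which turns on the genes for fusion, for acid secretion and for the enzymes that digest matrix. Osteoclasts are found in the bone and at the cartilage-bone border beneath a joint surface, and not among the chondrocytes of articular cartilage itself.

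The libraries held 34264456 to 38473120 counts on genes. Values are given as counts and as CPM, which is a share of the library's counts on genes, and the log2 ratio is the TMM-normalized count of the library labelled Cbfβ-deficient over that of the control of the same joint, with 0.5 added to each count. With 1 library per condition there is no replicate error and no test within a joint, and the 95% intervals given (Clopper-Pearson) are of counting error alone. Genes with 10 or more counts in a pair were called lower or higher where the difference was 2-fold or more, a log2 ratio of 1 or more in size, and the interval excluded 0. Cbfb, the targeted gene, had 2548 counts in the hip control and 2946 in the hip library labelled deficient (log2 ratio 0.41, interval 0.33 to 0.48), and 3796 and 4572 in the knee (log2 ratio -0.07, interval -0.13 to -0.01). Its total count therefore does not set the libraries apart as their labels do, and a count over a whole gene does not show whether an exon was removed. Skeletal muscle genes held 18.3% and 19.8% of the counts in the hip, with 1.36% and 2.88% in the knee, where erythroid genes, chiefly the globins Hba-a1 and Hba-a2, held 5.52% and 2.65%. In the hip, 14 chondrocyte genes summed to 258.0 and 105.1 CPM and Matn1, a cartilage matrix gene, had 3 counts and 1 count, against 6227.1 and 3092.3 CPM in the knee.

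In the knee, 5 of the 9 osteoclast genes were called lower in the library labelled deficient, namely Ctsk, Acp5, Dcstamp, Ocstamp and Oscar, and 0 were called higher. Their log2 ratios lay between -1.75 and -1.39, which is 2.62- to 3.37-fold lower. Among all 21131 knee genes with enough counts, 6.81% were called lower and 9.00% higher. Atp6v0d2 lay just outside the fold threshold, while Itgb3, Nfatc1 and Calcr did not share this direction. In the hip, 8 of the 9 genes had enough counts, and 1 was called lower (Dcstamp) and 1 higher (Atp6v0d2), where 16.3% of 19856 genes were called lower and 20.2% higher. The median log2 ratio of the osteoclast genes was -1.39 in the knee and -0.53 in the hip, against 0.02 and 0.01 over all genes. The sign of the hip median depended on genes of low count: its counting interval ran from -0.79 to 0.20, and it was 0.17 over the 5 genes with at least 10 counts in each library and -0.18 after the length and GC correction. In bulk RNA such as this, fewer cells of a type and less RNA per cell cannot be told apart.

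The joints were also put in 1 fit, added after the values were seen, with the joint as a block and 1 residual degree of freedom, so that its spread is the difference between the joints, which also differ in Cre line, control and tissue. By edgeR's quasi-likelihood test, 0 of 17594 genes passed a Benjamini-Hochberg adjusted p of 0.05, and 1044 (5.93%) had an unadjusted p under 0.05. Of the 8 osteoclast genes tested, all but Ocstamp, 0 passed the adjusted threshold and 3 had an unadjusted p under 0.05. These were Dcstamp (log2 ratio over both joints -2.01), Acp5 (-1.16) and Ctsk (-1.15), each with an edgeR adjusted p of 0.817. In this fit TMM was run over the 4 libraries together, so its log2 ratios are not on the within-joint scale.

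**Figure D1:**
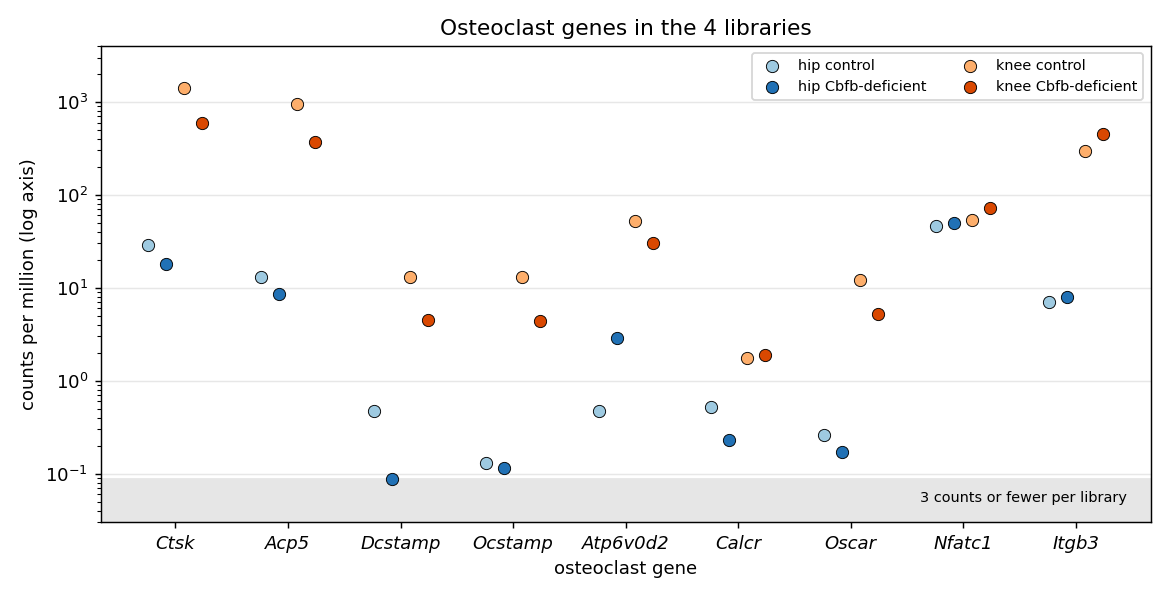
CPM (log axis) of the 9 osteoclast genes, with 1 point for each of the 4 libraries and the band of 3 counts or fewer in grey. Nfatc1 sits between 45.8 and 71.3 CPM in all 4 libraries, and each of the other 8 genes is higher in both knee libraries than in both hip libraries.

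For 8 of the 9 genes, all but Nfatc1, the controls of the joints lay further apart than the libraries of either pair. In the controls, Ctsk was at 28.6 CPM in the hip and 1410.1 CPM in the knee, a ratio of 49.3. The knee over hip ratio of the controls was 72.6 for Acp5, 112.2 for Atp6v0d2, 100.2 for Ocstamp, 47 for Oscar, 42.9 for Itgb3 and 27.5 for Dcstamp. It was 3.37 for Calcr and 1.18 for Nfatc1, the member whose level was closest between the joints. The knee samples are described as holding bone and the hip samples are not, and the hip and knee counts also came from different counting programs, annotations, ages and mouse lines. These cannot be told apart in the ratios.

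Of the 5 genes called lower in the knee, Ctsk, Oscar and Acp5 have promoter windows in the RefSeq table used here. The windows shown are those that hold a pattern bound by NFATc1 or by PU.1, another transcription factor of the osteoclast lineage. Each window runs from 250 bases before to 50 bases after an annotated gene start of RefSeq on the GRCm38.p6 build, 5′ to 3′ on the gene's own strand. Letters in capitals mark matches to an NFAT core pattern (GGAAAA) or a PU.1 pattern (GAGGAA) on either strand. The Ctsk window is chr3:95498960-95499259 on the plus strand, the Oscar window chr7:3616108-3616407 on the minus strand, and the Acp5 window, 1 of 3 of that gene, chr9:22135697-22135996 on the minus strand.
Ctsk: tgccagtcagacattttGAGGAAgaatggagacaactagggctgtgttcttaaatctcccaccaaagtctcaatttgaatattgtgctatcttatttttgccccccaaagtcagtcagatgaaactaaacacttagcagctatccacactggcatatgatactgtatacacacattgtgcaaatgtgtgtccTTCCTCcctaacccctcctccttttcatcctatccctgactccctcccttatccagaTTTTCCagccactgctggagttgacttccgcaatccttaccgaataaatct
Oscar: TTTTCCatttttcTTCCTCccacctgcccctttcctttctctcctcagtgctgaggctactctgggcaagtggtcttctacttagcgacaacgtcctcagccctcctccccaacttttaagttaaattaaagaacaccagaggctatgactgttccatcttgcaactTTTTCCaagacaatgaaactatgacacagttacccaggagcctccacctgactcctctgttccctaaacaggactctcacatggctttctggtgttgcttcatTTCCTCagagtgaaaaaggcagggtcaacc
Acp5: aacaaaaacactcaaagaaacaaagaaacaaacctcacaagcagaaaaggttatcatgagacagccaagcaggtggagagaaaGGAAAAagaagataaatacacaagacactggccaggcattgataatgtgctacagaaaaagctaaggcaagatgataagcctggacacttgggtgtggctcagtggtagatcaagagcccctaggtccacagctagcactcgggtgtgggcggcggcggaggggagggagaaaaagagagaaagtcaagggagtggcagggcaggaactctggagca

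In the Ctsk window a PU.1 match began 233 bases and another 58 bases before the start, and an NFAT match began 1 base before it. The Oscar window held NFAT matches 250 and 83 bases before the start, and PU.1 matches 237 bases before and 21 bases after it. The Acp5 window shown held an NFAT match 167 bases before the start. Over the 7 windows of the 4 members listed (Acp5, Calcr, Ctsk and Oscar), 3 held the NFAT pattern and 2 the PU.1 pattern, where 23.4% and 28.3% of all 32851 windows of the table held them. The other patterns searched were in 0 of the 7 windows. These were a RUNX pattern (TGTGGT, 16.8% of all windows), an AP-1 pattern (TGANTCA, 7.81%), an E-box (CACGTG, 7.15%) and a TATA pattern (TATAAA, 13.6%). NFAT and PU.1 patterns can overlap where GAGGAA runs on into further A, and a match is a stretch of letters and not a measured binding site.

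The enzymes by which osteoclasts digest matrix made up most of the osteoclast gene counts in the knee. Ctsk (ENSMUSG00000028111, GRCm39 chr3:95406178-95416732, 8 exons) encodes cathepsin K, the protease that cleaves bone collagen. It had 48315 counts in the knee control and 22701 in the knee library labelled deficient (1410.1 and 593.8 CPM), and 1101 and 615 in the hip (28.6 and 17.8 CPM). The library labelled deficient was thus the lower of the pair in both joints. The log2 ratio was -1.43 (interval -1.45 to -1.41) in the knee and -0.64 (interval -0.79 to -0.50) in the hip, where it missed the fold threshold. Acp5 (ENSMUSG00000001348, chr9:22038023-22049355) encodes tartrate-resistant acid phosphatase, the enzyme of the TRAP stain. Its counts were 32394 and 14273 in the knee (945.4 and 373.4 CPM) and 501 and 294 in the hip (13 and 8.5 CPM). These gave log2 ratios of -1.52 (interval -1.55 to -1.49) and -0.57 (interval -0.78 to -0.36), and the hip value became -0.13 (interval -0.34 to 0.08) when log2 ratios were corrected for transcript length and GC content. That of Ctsk in the hip was then -0.66 (interval -0.80 to -0.51). Before this correction, Acp5 counts per Ctsk count were 0.670 and 0.629 in the knee (log2 change -0.09, interval -0.13 to -0.06) and 0.455 and 0.478 in the hip (0.07, interval -0.18 to 0.32). This ratio needs no scaling between libraries.

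The genes of precursor fusion came next. Dcstamp (ENSMUSG00000022303, chr15:39609214-39624334) encodes DC-STAMP, a membrane protein that precursors need in order to fuse. It had 441 and 173 counts in the knee (12.9 and 4.53 CPM) and 18 and 3 in the hip, where the library labelled deficient was at the floor of 3 counts (0.0867 CPM). Its log2 ratio was -1.69 (interval -1.95 to -1.43) in the knee. The hip call rested on these few counts, with a log2 ratio of -2.20 and an interval from -4.79 to -0.61, and was lost when each library had to hold 10 counts. Ocstamp (ENSMUSG00000027670, chr2:165235680-165242336) encodes OC-STAMP, a related fusion protein. Its 446 and 167 counts in the knee (13.0 and 4.37 CPM) gave the lowest log2 ratio of the 9 genes, -1.75 (interval -2.02 to -1.50). In the hip it had 5 and 4 counts and no difference was detectable at this depth.

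Atp6v0d2 was the member whose direction was opposite in the joints. It (ENSMUSG00000028238, chr4:19876838-19922614) encodes the d2 subunit of the proton pump, which takes part in acid secretion and in fusion. It had 1798 counts in the knee control and 1162 in the knee library labelled deficient (52.5 and 30.4 CPM), and 18 and 100 in the hip (0.468 and 2.89 CPM). The knee log2 ratio was -0.97 (interval -1.08 to -0.86) and the hip log2 ratio 2.64 (interval 1.94 to 3.48). After the dependence of log2 ratios on transcript length and GC content was taken out, the hip value was 1.88 (interval 1.18 to 2.72). Per Ctsk count it was higher in the library labelled deficient of both joints, by 0.46 (interval 0.35 to 0.57) in the knee and 3.28 (interval 2.55 to 4.01) in the hip on the log2 scale.

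**Figure D2:**
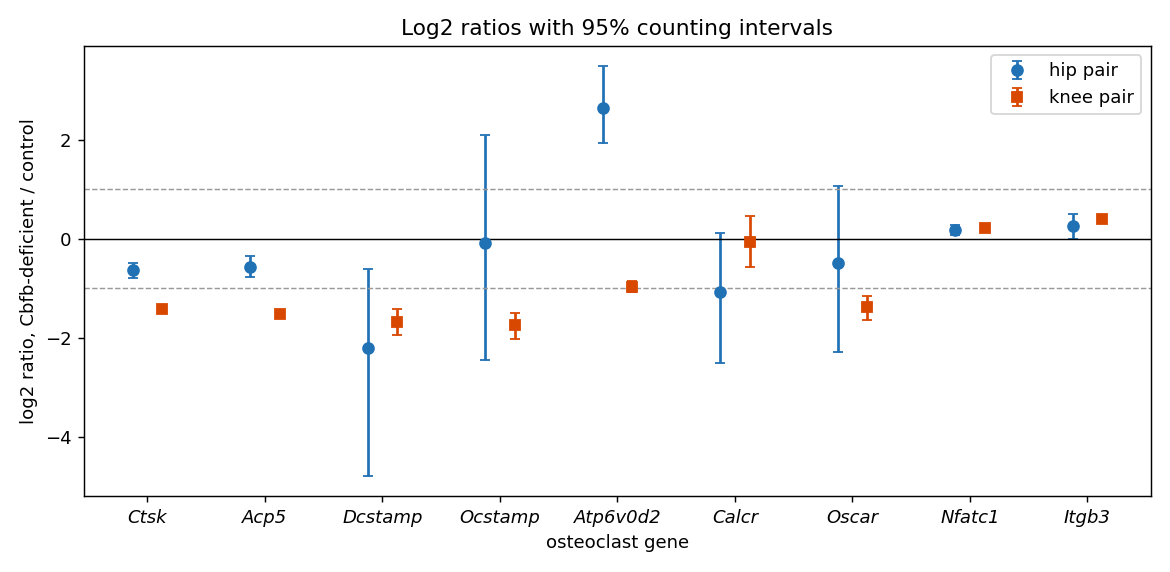
Log2 ratio of the library labelled Cbfβ-deficient over the control for each osteoclast gene in the hip pair (circles) and the knee pair (squares). Bars are 95% counting intervals and dashed lines mark the fold threshold. In the knee 5 genes lie below the lower line, and in the hip the intervals of Dcstamp, Ocstamp, Calcr and Oscar are wide because these genes had 20 counts or fewer per library.

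The receptors differed from each other. Oscar (ENSMUSG00000054594, chr7:3612812-3620861) encodes a collagen-binding receptor that signals through the adaptor FcRγ. It had 419 and 202 counts in the knee (12.2 and 5.28 CPM), a log2 ratio of -1.39 (interval -1.64 to -1.15). In the hip its 10 and 6 counts gave -0.49, with an interval from -2.28 to 1.06. Oscar per Ctsk count was nearly the same in the knee libraries (log2 change 0.04, interval -0.20 to 0.28). Calcr (ENSMUSG00000023964, chr6:3685680-3764714) encodes the calcitonin receptor of mature osteoclasts. It had 60 and 73 counts in the knee (1.75 and 1.91 CPM), and the log2 ratio of -0.06 (0.12 when scaled by library size alone) had an interval from -0.57 to 0.46, above the values of the 5 genes called lower. In the hip it had 20 and 8 counts, and the log2 ratio of -1.07 had an interval from -2.52 to 0.12, or of -1.65 (interval -3.10 to -0.46) with the length and GC correction. Calcr was the least abundant member in the knee per length, at 0.498 and 0.543 CPM per kb.

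Nfatc1 and Itgb3 were slightly higher, and not lower, in the libraries labelled deficient. Nfatc1 (ENSMUSG00000033016) encodes the transcription factor that directs osteoclast differentiation and that is also present in endothelial and other cells. It had 1853 and 2726 counts in the knee (54.1 and 71.3 CPM) and 1761 and 1732 in the hip (45.8 and 50.1 CPM). The log2 ratios were 0.22 (interval 0.13 to 0.30) and 0.17 (interval 0.08 to 0.27). Nfatc1 counts per count of Pecam1, an endothelial gene, were 0.793 and 0.794 in the knee and 0.702 and 0.554 in the hip. Pecam1 itself was at 0.22 in the knee and 0.51 in the hip. Log2 ratios of the 8 endothelial genes ran from -0.57 to 0.85 in the knee and from -0.69 to 0.51 in the hip. Their medians were 0.40 and -0.04, and the part of endothelial RNA in the Nfatc1 values was not tested. Itgb3 (ENSMUSG00000020689, chr11:104498826-104561302) encodes integrin β3, which pairs with the αv chain in osteoclasts and with the αIIb chain in platelets and megakaryocytes. Its counts were 10238 and 17093 in the knee (298.8 and 447.1 CPM) and 268 and 278 in the hip (6.97 and 8.04 CPM). The log2 ratio was 0.40 (interval 0.36 to 0.44) in the knee and 0.25 (interval 0.00 to 0.50) in the hip.

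The partner chains of integrin β3 moved apart from each other. Itgav, the αv chain, had 2821 and 2533 counts in the knee (log2 ratio -0.49, interval -0.57 to -0.42) and 656 and 930 in the hip (0.70, interval 0.56 to 0.85). Itga2b, the αIIb chain, was at 302.3 and 386.2 CPM in the knee (0.17, interval 0.14 to 0.21) and at 11.1 and 7.11 CPM in the hip (-0.59, interval -0.83 to -0.36). Itgb3 counts per Itga2b count were 0.988 and 1.16 in the knee and 0.629 and 1.13 in the hip. In the knee 7 of 9 platelet and megakaryocyte genes had an interval above 0 (31.9% of all genes), the median log2 ratio of the list was 0.29, and its sum was 1082.5 and 1579.5 CPM. In the hip 8 of the 9 lay below 0 (33.7% of all genes), with a median of -1.41 and a sum of 45.2 and 21.1 CPM. The part of platelet RNA in the Itgb3 values was not tested. Nfatc1 and Itgb3 also have the longest transcripts of the 9 genes, 4758 and 5784 bases, against 1829 to 3668 bases for the others. After the dependence on length and GC content was taken out, Nfatc1 was at 0.01 (interval -0.07 to 0.10) in the knee and 0.27 (interval 0.18 to 0.37) in the hip. Itgb3 was then at 0.15 (interval 0.12 to 0.19) in the knee and 0.12 (interval -0.12 to 0.37) in the hip, where the interval included 0. Ctsk and Acp5 were then at -1.30 and -1.54 in the knee.

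The order of levels per length, in CPM per kb of transcript, put the enzymes first in the knee. In the knee control Ctsk stood at 744.5, Acp5 at 398.1, Itgb3 at 51.7, Atp6v0d2 at 20.6 and Nfatc1 at 11.4. Oscar at 6.69 and Dcstamp at 6.10 were neighbours, and Ocstamp followed at 3.55. Among genes with a count in that library, Ctsk lay at the percentile 99.6, Acp5 at 99.3 and Itgb3 at 95. In the knee library labelled deficient Ctsk and Acp5 kept the first places at 313.5 and 157.2, Itgb3 stood at 77.3, and Nfatc1 at 15 passed Atp6v0d2 at 11.9. In the hip control Ctsk (15.1) came before Nfatc1 (9.62) and Acp5 (5.48), and in the hip library labelled deficient Nfatc1 (10.5) came before Ctsk (9.39). Itgb3 followed at 1.20 and 1.39, and the other 5 genes were at 1.13 or less in both hip libraries.

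**Figure D3:**
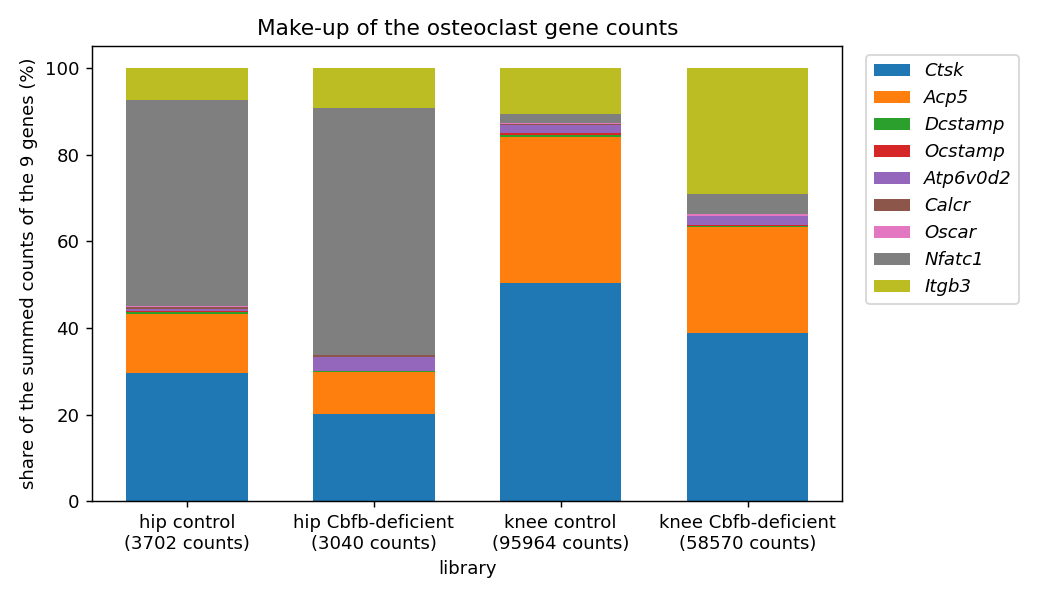
Share of the summed counts of the 9 osteoclast genes taken by each gene in each library (stacked bars from 0 to 100%), with the summed count under each bar. Ctsk and Acp5 together fill most of both knee bars, Nfatc1 is the largest part of both hip bars, and the Itgb3 part is 10.7% in the knee control and 29.2% in the knee library labelled deficient.

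The make-up of the osteoclast gene counts therefore differed by joint and by library. The 9 genes summed to 95964 counts in the knee control and 58570 in the knee library labelled deficient (2800.7 and 1532.1 CPM), and to 3702 and 3040 in the hip (96.2 and 87.9 CPM). Ctsk took 50.3% (95% Clopper-Pearson interval 50 to 50.7%) of the knee control sum and 38.8% (interval 38.4 to 39.2%) of the other knee sum. Acp5 took 33.8% and 24.4%. Itgb3 took 10.7% (interval 10.5 to 10.9%) and 29.2% (interval 28.8 to 29.6%). In the hip Nfatc1, which other cell types also express, took 47.6% and 57.0% of the sum, and Ctsk took 29.7% and 20.2%.

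The remaining osteoclast pathway was divided in direction in both joints. The list held 43 other genes for acid secretion, matrix degradation, adhesion, costimulation, transcription, fusion and signalling. In the knee 20 had an interval below 0, 17 above 0 and 6 included 0, with 1 called lower and 1 called higher (6.81% and 9.00% of all genes), and the median log2 ratio was -0.06. Among all genes 29.7% of the knee intervals lay below 0 and 31.9% above. In the hip 18 lay below 0, 15 above and 10 included 0, with 3 called lower and 5 called higher (16.3% and 20.2% of all genes) and a median of -0.01. Among all genes 33.7% of the hip intervals lay below 0 and 37.3% above.

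Of the 10 acid secretion genes, 0 were called lower or higher in either joint. Over all genes 6.81% and 9.00% were called lower and higher in the knee, and 16.3% and 20.2% in the hip. In the knee 7 of the 10 had an interval below 0 and 2 above (29.7% and 31.9% of all genes), with a median of -0.28. On library size alone the knee had 6 and 3, with a median of -0.10. In the hip 1 lay below 0 and 6 above (33.7% and 37.3% of all genes), with a median of 0.42. These shares are at the main scaling, and the difference between the joints was not tested. After the length and GC correction the knee had 8 below and 0 above (median -0.46) and the hip 3 below and 4 above (median 0.09). Car2, the carbonic anhydrase that supplies protons, had 45998 and 36050 counts in the knee (log2 ratio -0.69) and 2883 and 1698 in the hip (-0.57). Tcirg1, the osteoclast a3 subunit of the pump, was at -0.24 in the knee and 0.46 in the hip, and Snx10, a vesicle sorting protein, at -0.58 and 0.51. Car2 is also abundant in red cells. The 10 erythroid genes had a knee median of -0.26, with the globins Hba-a1 and Hba-a2 at -1.31 and -1.35 and Alas2, the first enzyme of erythroid haem synthesis, at 0.18.

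The other matrix proteases were less alike. Mmp9, a gelatinase made by osteoclasts and neutrophils, had 34001 and 34345 counts in the knee (log2 ratio -0.32, interval -0.35 to -0.30) and 903 and 897 in the hip (0.19, interval 0.05 to 0.32). Ctsk per Mmp9 count was 1.42 and 0.661 in the knee, a log2 change of -1.10. Mmp14, a membrane protease of osteoclasts and of many connective tissue cells, was the pathway gene called lower in the knee, with 9536 and 5569 counts and a log2 ratio of -1.12 (interval -1.16 to -1.07).

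Costimulation and adhesion genes were divided in both joints. Of 8 costimulation genes 5 had an interval above 0 and 2 below (31.9% and 29.7% of all genes), with 0 called and a median of 0.25, and of 6 adhesion genes 3 lay above 0 and 2 below, with 1 called higher (9.00% of all genes) and a median of 0.34. In the hip 4 costimulation genes lay below 0 and 1 above (33.7% and 37.3% of all genes), with 1 called higher (20.2% of all genes) and a median of -0.53. Of the adhesion genes 4 lay below 0 and 2 above in the hip, with 1 called lower (16.3% of all genes), 1 called higher and a median of -0.38. The knee medians were 0.43 and 0.52 on library size alone and 0.27 and 0.13 after the length and GC correction, where 3 adhesion genes lay above 0 and 3 below. The hip medians were -0.57 and -0.42 on library size alone and -0.08 and -0.48 after the correction. In the hip 1 costimulation gene then lay below 0 and 1 above, and 4 adhesion genes lay below and 1 above. Plcg2, a signalling enzyme below the costimulatory receptors, was at 0.71 in the knee and -0.82 in the hip, and Fermt3, which activates integrins in blood cells, at 0.62 and -0.87. Fcer1g, the adaptor through which OSCAR signals, was lower in both joints, with 8087 and 6840 counts in the knee (log2 ratio -0.58) and 476 and 291 in the hip (-0.51). Of the transcription factors, Spi1, which encodes PU.1, was at -0.27 in the knee and -0.16 in the hip, where its interval of -0.36 to 0.04 included 0. Fos was at 0.79 and 1.66 and Mitf at 0.48 and 1.11. Among the fusion genes outside the 9, Adam8 was at 0.21 in the knee and 1.83 in the hip, and Cd9, Cd47 and Cd200 lay between -0.27 and -0.01 in the knee.

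**Figure D4:**
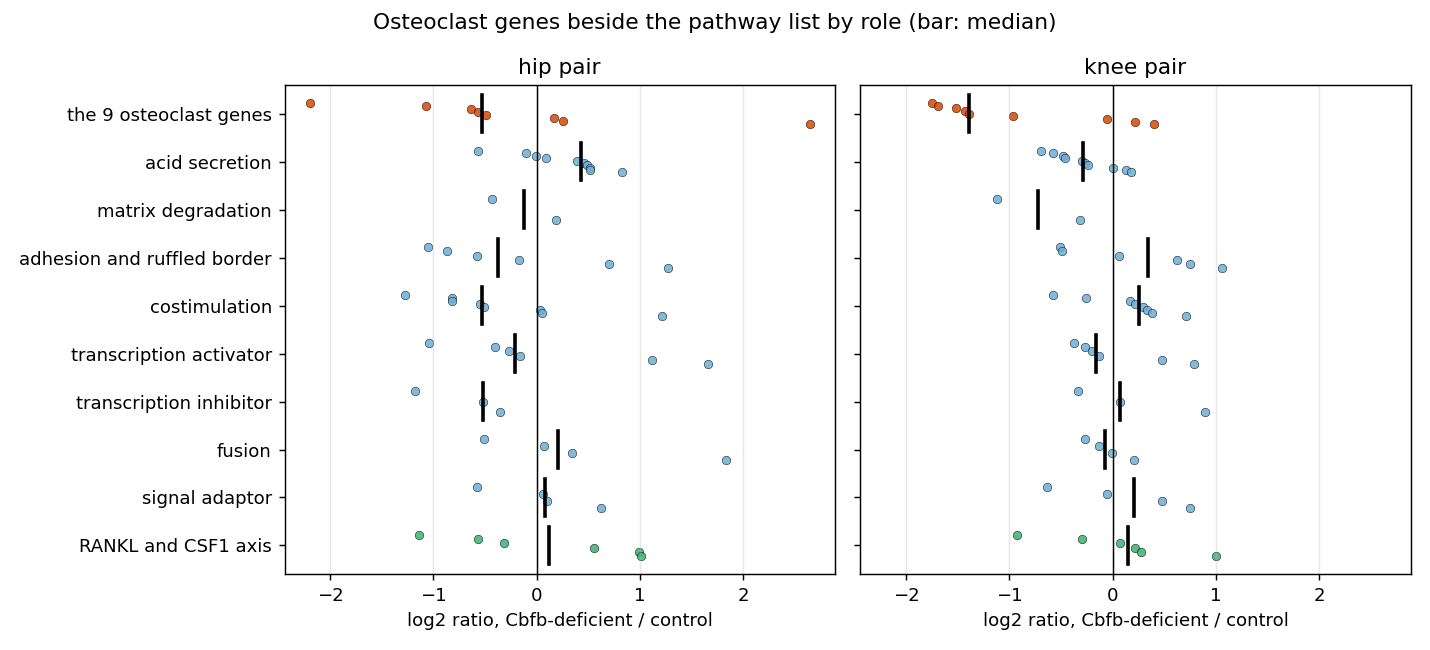
Log2 ratios of the 9 osteoclast genes (orange), of the 43 other genes of the osteoclast pathway by role (blue) and of the RANKL and CSF1 axis (green), with 1 point per gene with enough counts, in the hip pair (left) and the knee pair (right). Black bars are medians. In the knee 6 of the 9 genes lie at -0.97 or lower, where 1 pathway gene, Mmp14, does.

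The ligands and receptors that drive osteoclast formation differed in direction. Tnfsf11, which encodes RANKL, had 208 and 138 counts in the knee, and its log2 ratio of -0.93 (interval -1.25 to -0.61) missed the fold threshold. In the hip it had 9 and 16 counts, and the interval of -0.24 to 2.39 included 0. Tnfrsf11b, which encodes osteoprotegerin, had 619 and 1571 counts in the knee, a log2 ratio of 1.00 (interval 0.87 to 1.14) at the fold threshold, and 130 and 166 in the hip (0.55, interval 0.21 to 0.89). Tnfrsf11a, the RANKL receptor, was at 0.27 (interval 0.03 to 0.51) in the knee from 233 and 355 counts, and at 1.01 (interval 0.36 to 1.71) in the hip from 31 and 55. The CSF1 receptor Csf1r had 3937 and 5791 counts in the knee (0.22, interval 0.16 to 0.28) and 1342 and 531 in the hip (-1.14, interval -1.29 to -0.99). Its ligands Csf1 and Il34 were at -0.30 and 0.07 in the knee.

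Ctsk in the knee was compared with genes of other cell types as ratios within a library, which need no scaling. Ctsk counts per Csf1r count were 12.3 in the control and 3.92 in the library labelled deficient (log2 change -1.65, interval -1.71 to -1.58). The hip ratio went the other way, from 0.82 to 1.16 (log2 change 0.50, interval 0.29 to 0.70). Of the 13 macrophage genes 6 had a knee interval below 0 and 3 above (29.7% and 31.9% of all genes), with 0 called lower or higher (6.81% and 9.00% of all genes) and a median of -0.19. Their sum was 3208.7 and 3586.5 CPM (log2 ratio of sums -0.02), of which Lyz2 alone was 2601.5 and 3037.8 CPM. Without Lyz2, a sum added after the values were seen, it was 607.1 and 548.7 CPM (log2 ratio of sums -0.33). Against collagen genes in the knee the log2 changes of the Ctsk ratios lay on both sides of 0. Ctsk per Col10a1 count, a collagen of hypertrophic chondrocytes, was 3.96 and 3.93 (log2 change -0.01, interval -0.06 to 0.04), and Ctsk per Col1a1 count, the main bone collagen, was 0.153 and 0.119 (-0.37, interval -0.39 to -0.34). Ctsk per Col2a1 count, the main cartilage collagen, was 0.553 and 0.684 (0.31, interval 0.28 to 0.34).

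Several lists of other cell types moved with the osteoclast genes in the knee. Of 6 hypertrophic chondrocyte genes 5 were called lower (6.81% of all genes), with a median of -1.43 and sums of 3734.0 and 1694.5 CPM. Most of this sum was Spp1, at 2216.7 and 930.3 CPM, and Mmp13, at 813.4 and 281.8 CPM. The gene of this list that was not called, Mef2c, was at 0.61 (interval 0.55 to 0.66). Of 14 chondrocyte genes 10 were called lower, with a median of -1.62, and 3 had an interval above 0 (31.9% of all genes). Among these 3 was Acan, the aggrecan gene, at 0.35 (interval 0.23 to 0.48). The 12 osteoblast and osteocyte genes had a median of -0.19, with 4 called lower and 1 higher (9.00% of all genes), and summed to 12173.7 and 7199.2 CPM, or to 2960.4 and 2189.6 CPM without Col1a1, a sum added after the values were seen. The osteoblast gene Bglap was at -1.95 and Ibsp, expressed by osteoblasts and also by osteoclasts, at -0.04. All 16 muscle genes had an interval above 0 (31.9% of all genes), with a median of 1.05 and 9 called higher. All 10 adipocyte genes also had one above 0, with a median of 0.89 and 4 called higher, and the 7 B cell genes tested had one below 0 (29.7% of all genes), with a median of -0.60 and 2 called lower. Lists of bone, cartilage, muscle, fat and blood genes thus differed between the knee libraries beside the osteoclast genes, and the part of tissue make-up in the osteoclast values was not tested.

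In the hip the osteoclast genes were set beside the bone genes. The osteoblast and osteocyte list summed to 928.8 and 226.4 CPM, a log2 ratio of sums of -1.99, with a median of -0.89. Most of this sum was Col1a1, at 757.6 and 157.0 CPM, and without it, again a sum added after the values were seen, it was 171.2 and 69.3 CPM (log2 ratio of sums -1.26). Of the 12 genes 5 were called lower and 1 higher (16.3% and 20.2% of all genes), and the osteocyte genes Dmp1 and Mepe were at 0.53 and 1.45. The 9 osteoclast genes summed to 96.2 and 87.9 CPM, a log2 ratio of sums of -0.09. Without Nfatc1 and Itgb3, at 0.17 and 0.25 in the hip, they summed to 43.5 and 29.8 CPM (log2 ratio of sums -0.50). The hip median of the osteoclast genes, whose sign depended on the count filter as given above, was -0.53 (interval -0.79 to 0.20). It was -0.61 without Nfatc1 and Itgb3. Leaving out members that were higher lowers these values by itself. Ctsk per Col1a1 count was 0.0378 and 0.113 in the hip (log2 change 1.58, interval 1.44 to 1.73). Bone was not the only list with a hip median below 0. The others were B cell (-1.57), platelet and megakaryocyte (-1.41), fibroblast (-1.23), chondrocyte (-0.90), macrophage (-0.78), erythroid (-0.45) and endothelial (-0.04). Above 0 were adipocyte (0.51), skeletal muscle (0.35), hypertrophic chondrocyte (0.26) and neutrophil (0.16). None of the defining genes of the 12 cell type lists was at 0 counts in any library.

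**Figure D5:**
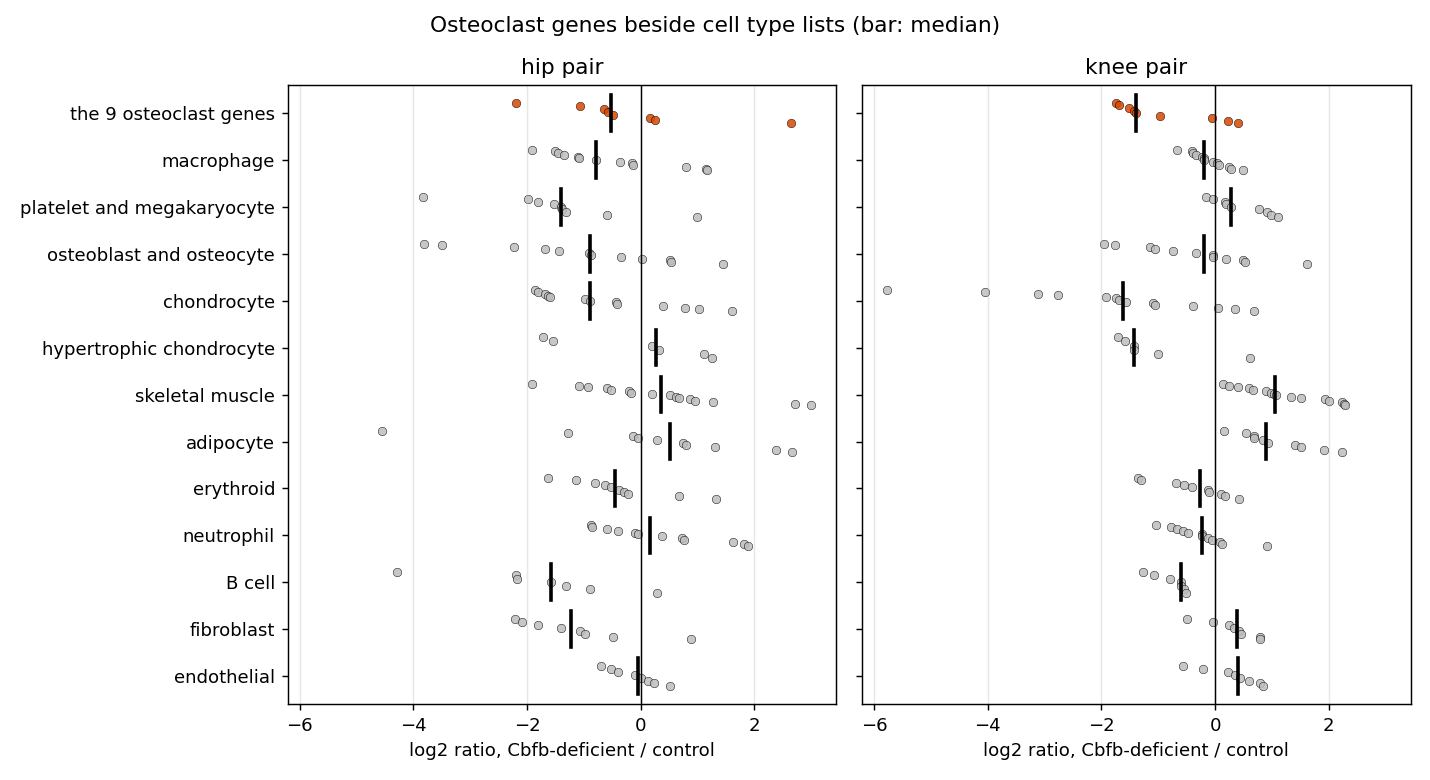
Log2 ratios of the 9 osteoclast genes (orange) beside 12 lists of other cell types (grey), with 1 point per gene with enough counts and a bar at each median, in the hip pair (left) and the knee pair (right). In the knee the medians of the osteoclast (-1.39), chondrocyte (-1.62) and hypertrophic chondrocyte (-1.43) lists lie lowest and that of muscle (1.05) highest.

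Among the genes whose profile over the 4 libraries was nearest to the summed osteoclast CPM, by Euclidean distance of centred log2 values over 11039 genes, were Dut (distance 0.334), Tmsb4x (0.340) and Tyms (0.392). Dut and Tyms, enzymes of thymidine nucleotide synthesis, had -0.68 and -0.61 in the knee. With 4 libraries, a large part of any such likeness is the difference in level between the joints. Between single members, in a search added after the values were seen, Acp5 (distance 0.477) ranked 4 of 11043 genes by likeness to Ctsk, behind Col11a1 (0.304), a cartilage collagen chain, Cks1b (0.410), a cell cycle gene, and Igkc (0.446), an immunoglobulin chain. Itgb3 ranked 177 and Nfatc1 ranked 6395. The gene nearest to Acp5 was the globin Hba-a2 (0.205).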

How the data were processed

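Poly-A RNA labelled as hip and knee articular cartilage was analysed in 4 libraries, 1 per condition. The authors deposited raw counts of reads per Ensembl gene as whole numbers. The processing notes name FastQC 0.11.3, STAR 2.0 and the mm10 build, and the study's methods name the GRCm39 build and paired DESeq2. The notes on extraction name osteoblasts, and the tissue label, cartilage, was used. The summary lines that close the hip values held 25.8% and 24.6% of the reads listed and were left out. Counts on genes ranged from 34264456 to 38473120, and 3 counts, taken as the floor, were 0.0780 to 0.0876 CPM.

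Symbols, positions and transcript lengths came from GENCODE M39, with 91.8% of identifiers matched in the hip and 92.6% in the knee. Counts were scaled within a joint by TMM in edgeR 4.0.16 (R 4.3.3), and intervals were computed in Python 3.11.15 with scipy 1.17.1. With 1 library per condition no test was made within a joint. A fit of all 4 libraries with the joint as a block, by edgeR's quasi-likelihood test, was added after the values were seen. Its TMM scaling was over the 4 libraries together. The genes named are the 9 osteoclast genes, genes of the pathway and RANKL lists, up to 3 defining genes per cell type list, genes used as denominators and the 10 genes nearest in profile to the summed members, among those with 100 counts or more in the higher library of each pair, of which 1 is not reported here. Also named are Cbfb, genes that made up much of a list's sum (Lyz2, Col1a1, Spp1 and Mmp13) and genes nearest to single members. Mef2c and Mepe are named because they went against the direction of their list. The members and lists were chosen with earlier results of these data known. The ratios between single genes and the search for genes like single members were chosen after values were seen. Alternatives were other scalings (DESeq2 1.42.0 size factors among them), added counts, filters and call rules, and correction of log2 ratios for transcript length and GC content (medians of 20 bins, 2 rounds). On simulated counts that held counting error only and no difference between animals, 200 of 200 changed genes were recovered in each joint, and 0.906% (hip) and 0.589% (knee) of unchanged genes were called.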

Additional observations from a re-analysis of the deposited data

Results flagged for a closer look

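Of the 58 osteoclast, pathway and RANKL and CSF1 genes, 16 were higher than the control in 1 joint and lower in the other in the libraries labelled Cbfβ-deficient, with both counting intervals excluding 0. That is 27.6%, against 20.5% of the 17594 genes with enough counts in both joints. The 58 include Ocstamp, which had too few counts in the hip, so the shares are not over quite the same kind of set. Atp6v0d2, Gsn, Bcl6 and Csf1r are given because they also had 50 counts or more in each pair and differed 2-fold or more in at least 1 joint. The difference between the joints was not tested, and it has 1 library per condition behind it. The log2 ratio of Atp6v0d2, the d2 subunit of the proton pump, was 2.64 in the hip and -0.97 in the knee. That of Gsn, gelsolin, an actin-severing protein of the podosome and also abundant in muscle and connective tissue, was -1.05 in the hip and 1.06 in the knee. Bcl6, a repressor of osteoclast genes that is also active in muscle and lymphocytes, had -1.18 in the hip and 0.89 in the knee. Csf1r, the CSF1 receptor, had -1.14 in the hip and 0.22 in the knee.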

How the results depend on the processing

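In the knee, 5 osteoclast genes were called lower under each scaling, added count and filter tried, and 6, with Atp6v0d2, at a fold threshold of 1.5 (13.7% of all genes) or with no minimum fold (29.7%). The median log2 ratio of the 9 lay between -1.39 and -1.21. With at least 10 counts in each library, 0 osteoclast genes were called lower in the hip and the median of the 5 genes left was 0.17. There were 2 called lower with the length and GC trend removed (Dcstamp and Calcr; 15.5% of all genes), 2 of 8 at a fold threshold of 1.5, where 23.5% of all genes were, and 3 of 8 with no minimum fold, where 33.7% were. With no minimum fold 3 of 8 were called higher in the hip, against 37.3% of all genes. With no minimum fold 2 of 9 were called higher in the knee, against 31.9% of all genes. Over all genes, at least 10 counts in each library left 1435 called lower in the hip, and 811 lower and 1202 higher in the knee. The fold threshold of 1.5 gave 2891 lower and 3458 higher in the knee. Removing the trend gave 3042 lower and 2667 higher in the hip, against 3234 and 4018. Of called hip genes 46.7% were then higher, against 55.4%. Without TMM, on library size alone, the knee median of all genes was 0.20 and 71.3% of called knee genes were higher, against 56.9%. With the trend removed that share was 63.8%, and Acp5 in the hip was at -0.13 (interval -0.34 to 0.08). The causes were not tested. With the joint as a replicate block, 0 of the 8 osteoclast genes tested passed an adjusted p of 0.05 and 3 an unadjusted p of 0.05 by edgeR's quasi-likelihood test. With 1 library per condition no value within a joint has a replicate error. Depth limits 4 of the 9 genes in the hip, with 20 counts or fewer per library, and Calcr in the knee, with 60 and 73.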
